A study of Homo sapiens with 12 samples.

Results

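The HOX genes are the homeobox genes of the HOXA, HOXB, HOXC and HOXD clusters, and they were followed here across knockdowns of MYCN and HAND2 in IMR32, an established human neuroblastoma cell line with amplified MYCN. Members were the rows of the deposited expression table whose symbol is HOX, a cluster letter and a paralogue number, which left out antisense transcripts. This gave 39 genes of the 27514 listed, with 11 in HOXA, 10 in HOXB, 9 in HOXC and 9 in HOXD. Cells were electroporated with siRNA (Nucleofector) and harvested 72 h later, with 3 samples in each of 4 groups. The groups received a control siRNA (siCTR in the labels, siCtrl here), an siRNA against MYCN (siMYCN_2, siMYCN here), an siRNA against HAND2 (siHAND2_3, siHAND2 here) or both of these siRNAs together (siM2+siH2_3, the combined knockdown here). Each target was hit with a single siRNA label, all samples are of 1 cell line, and no sample was left without siRNA.

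HOX genes encode homeodomain transcription factors that give cells their position along the head-to-tail axis. Within a cluster the low-numbered paralogues are active in anterior tissue and the high-numbered ones in posterior tissue, and the order of the genes on the chromosome follows the order of their expression. Neuroblastoma arises from the sympathoadrenal lineage of the trunk neural crest, and these cells keep part of the HOX pattern of the axial level at which they formed. HOX proteins bind DNA with TALE homeodomain partners (the PBX, MEIS and PKNOX families), and the clusters are held silent or open by the Polycomb and Trithorax groups of chromatin regulators. MYCN, with its partner MAX, and HAND2, with E proteins, are basic helix-loop-helix factors that bind E-boxes, short sites of the form CANNTG.

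Both targeted genes fell in the samples meant to lack them. MYCN was listed at 964, 1049 and 1015 CPM (read counts relative to the size of the library) in siCtrl and at 671, 666 and 708 CPM with the MYCN siRNA. It stood at 899, 844 and 802 CPM in siHAND2 and at 555, 458 and 433 CPM in the combined knockdown. HAND2 was listed at 224, 241 and 254 CPM in siCtrl and at 54.3, 64.9 and 67.7 CPM with its own siRNA. The combined knockdown had 86.3, 67.1 and 67.2 CPM, and siMYCN had 324, 319 and 334 CPM, above every siCtrl sample. Estimated depths ran from 31.6 to 64.2 M reads, with 18.2 to 37.5 M in listed genes, and 3 reads corresponded to 0.0468 to 0.0949 CPM, a limit that covers counting error only. Reads in listed genes made up 65.1% ± 0.74 of the library in siCtrl and 51.4% ± 7.04 in the combined knockdown (SD, n = 3), whose replicate 3 had 44.3%, with 62.4% ± 0.98 for siMYCN and 59.4% ± 2.39 for siHAND2 between them. The median log2 fold change of the 12680 genes tested was -0.14 for siHAND2 and -0.28 for the combined knockdown. It was 0.006 for siMYCN, whose share was also below that of siCtrl. Calls of HOX genes are therefore given on the deposited scale and also rescaled (each sample divided by the median, over genes, of its ratio to the mean sample, a geometric mean). Of 10 sympathetic neuron and neuroblastoma markers 9 had a mean of at least 1 CPM, whereas the markers of blood summed to at most 0.157 CPM and those of epithelium to at most 0.233 CPM, with CD3E and KRT5 at 0 in every sample.

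The stretches of DNA just upstream of the HOX genes differ in the E-boxes they hold, and 3 are shown, chosen from the genes with changes described below. Each is the 250 bases before the start listed for the gene, read from GRCh37 on the plus strand, on which all 3 genes lie, with every CANNTG in capitals. The HOXD3 window is chr2:177028555-177028804, of which 26 bases are exon of HAGLR or of a longer HOXD3 transcript. The HOXD8 window is chr2:176994172-176994421 and holds no annotated exon. The HOXD9 window is chr2:176987163-176987412 and shares 10 bases with an exon of HOXD-AS2.
HOXD3: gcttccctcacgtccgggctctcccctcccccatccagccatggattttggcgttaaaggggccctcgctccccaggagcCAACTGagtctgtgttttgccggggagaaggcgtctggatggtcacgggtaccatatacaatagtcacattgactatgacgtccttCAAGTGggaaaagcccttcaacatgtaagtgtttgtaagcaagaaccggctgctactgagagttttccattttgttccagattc
HOXD8: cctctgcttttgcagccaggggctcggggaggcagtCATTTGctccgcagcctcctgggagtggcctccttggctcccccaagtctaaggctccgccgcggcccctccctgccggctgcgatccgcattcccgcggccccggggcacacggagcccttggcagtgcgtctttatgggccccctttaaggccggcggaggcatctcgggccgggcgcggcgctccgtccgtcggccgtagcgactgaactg
HOXD9: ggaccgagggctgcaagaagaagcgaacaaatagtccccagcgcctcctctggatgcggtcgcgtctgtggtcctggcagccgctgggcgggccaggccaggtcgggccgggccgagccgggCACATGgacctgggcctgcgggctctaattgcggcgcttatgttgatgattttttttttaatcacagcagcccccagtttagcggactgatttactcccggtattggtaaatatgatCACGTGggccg
HOXD9 held CACGTG, the canonical E-box of MYC proteins and their partners, at 11 bases before the start, measured to the first base of the motif, and CACATG further upstream. HOXD3 held CAACTG and CAAGTG, and HOXD8 held CATTTG as its sole E-box. HOXC8 and HOXD4 also changed in comparisons below and are not shown. The HOXC8 window held no CANNTG, and that of HOXD4 held CAGCTG.

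Among the windows of all 39 HOX genes, 30 (76.9%) held CANNTG, against 61.9% of the 27444 windows of listed genes. CACGTG, which is one form of CANNTG, stood in 14 of 39 HOX windows (35.9%) and in 6.33% of all windows. Of these 14, 12 belonged to the 30 HOX genes that were too low to be tested (40%). The other 2 belonged to the 9 tested HOX genes (22.2%), against 7.86% of the windows of all tested genes. CATCTG or its reverse complement CAGATG, another form of CANNTG, stood in 2 of 39 (5.13%) and in 11.7% of all windows. TGATNNAT or its reverse complement ATNNATCA, the form of a joint PBX and HOX site, stood in 12 of 39 (30.8%) and in 6.35% of all. All 12 belonged to the 30 HOX genes that were too low to be tested, and none to the 9 that were tested, against 3.25% of the windows of all tested genes. These letters are given as a description of the sequence. Paralogous windows share ancestry, and HOXC4, HOXC5 and HOXC6 share 1 listed start and so 1 window, which lies wholly in exon of HOXC6.

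IMR32 cells expressed the anterior and middle genes of the HOXC and HOXD clusters, while HOXA and HOXB were at or near 0. The HOXA cluster (chr7:27132614-27239726) and the HOXB cluster (chr17:46606807-46806112) had no gene above 3 reads in any of the 12 samples, and the highest single value was 0.0633 CPM, for HOXB13. In HOXA 10 of 11 genes were listed at 0 in every sample, and in HOXB 5 of 10. The HOXC cluster (chr12:54332576-54449815) had means of at least 1 CPM from HOXC4 to HOXC9, and the HOXD cluster (chr2:176957532-177055636) from HOXD3 to HOXD9. Counted over both clusters, 10 genes lay above 3 reads in all 12 samples. No knockdown brought a gene of HOXA or HOXB above 3 reads.

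**Figure D1:**
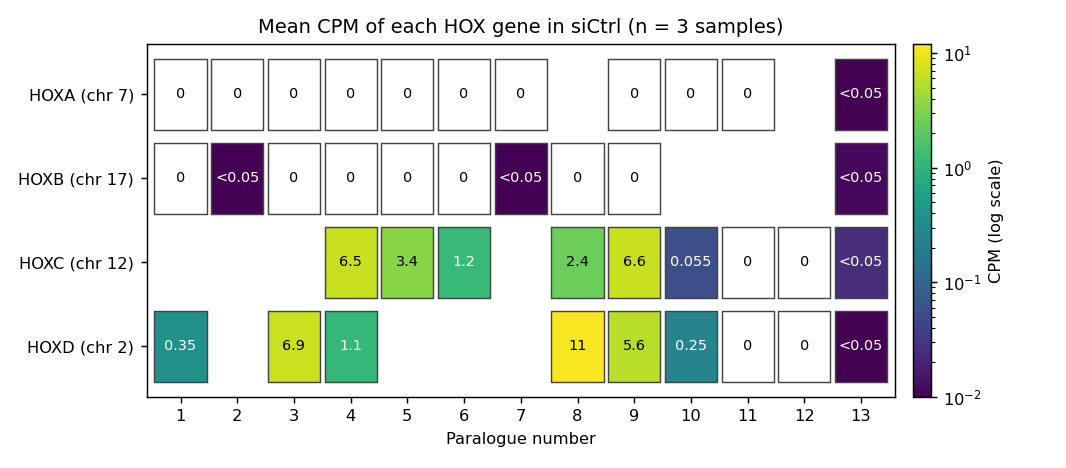
Mean CPM of each of the 39 HOX genes in the 3 siCtrl samples, with clusters in rows and paralogue number (1 is the most anterior) in columns, and colour on a log scale. Values above 1 CPM are found from HOXC4 to HOXC9 and from HOXD3 to HOXD9, and HOXA and HOXB are at or near 0.

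The genes at the ends of the expressed stretches were low. HOXD1, the most anterior gene of its cluster, was listed at 0.251 to 0.623 CPM with a mean of 0.405 over the 12 samples, and it overlaps the noncoding gene HAGLR on the other strand. HOXD10 was listed at 0.074 to 0.310 CPM and HOXC10 reached 0.171 CPM in 1 sample at most. The posterior genes HOXC11, HOXC12, HOXC13, HOXD11, HOXD12 and HOXD13 stayed at or under 3 reads. A gene entered the test with a mean of at least 1 CPM over all samples, which 9 of 39 HOX genes reached. The lowest inside was HOXD4 with a mean of 1.26 CPM and the highest outside was HOXD1. Their means of 1.26 to 9.56 CPM all lay below the median of 18.4 CPM among the genes tested.

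Per kilobase of annotated exon the siCtrl samples ranked HOXC9 first with 4.41 ± 0.24 CPM per kb (SD, n = 3), followed by HOXD8 with 4.27 ± 0.39 CPM per kb. These levels did not differ beyond their spread. HOXD9 with 3.02 ± 0.32 CPM per kb and HOXD3 with 2.99 ± 0.32 CPM per kb came next and also did not differ. HOXC4 followed with 2.36 ± 0.11 CPM per kb and HOXC5 with 2.09 ± 0.19 CPM per kb. HOXC8 with 1.05 ± 0.12 CPM per kb and HOXD4 with 0.99 ± 0.23 CPM per kb overlapped each other. HOXC6 was lowest of the tested genes with 0.53 ± 0.10 CPM per kb. HOXC4, HOXC5 and HOXC6 start at the same listed base and share 17.5%, 67.3% and 21.6% of their exon bases with another gene of the same strand, so the split of reads between them is uncertain. HOXC8, HOXC9, HOXD3, HOXD4, HOXD8 and HOXD9 overlap no other listed gene. In the combined knockdown the order changed, with HOXC9 at 5.12 ± 1.36 CPM per kb, HOXD3 at 3.68 ± 0.92 CPM per kb and HOXD8 at 2.77 ± 0.34 CPM per kb.

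**Figure D2:**
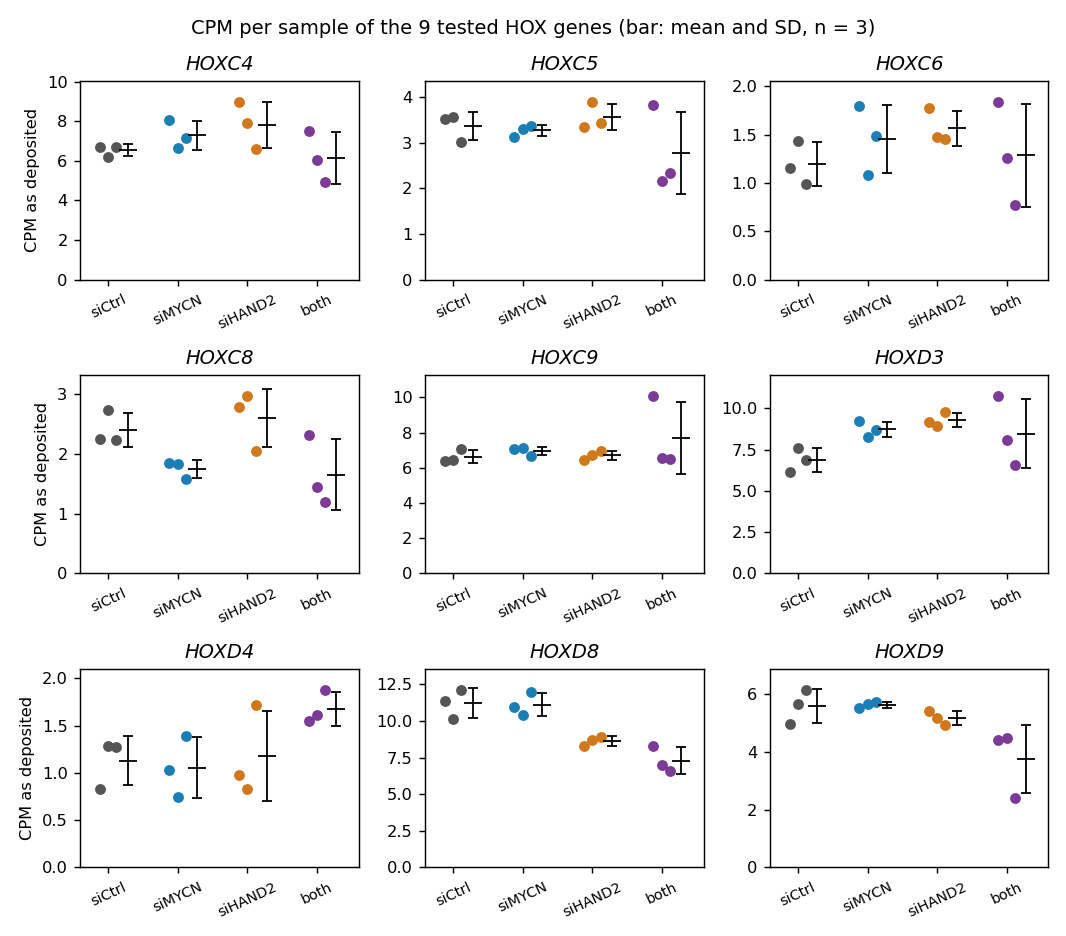
CPM as deposited of the 9 tested HOX genes in each of the 12 samples by group, with the mean and SD (n = 3) beside the points, on axes that start at 0. HOXD8 is lower in all siHAND2 and combined samples than in all siCtrl samples, and combined replicate 1 lies above its group for HOXC4, HOXC5, HOXC6, HOXC8, HOXC9 and HOXD3.

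Markers of other cell types moved with the knockdowns as well and are given beside the HOX values. The 7 fibroblast and mesenchymal markers summed to 116 to 125 CPM in siCtrl and 149 to 159 CPM in siMYCN, against 54.5 to 66.0 CPM in siHAND2 and 29.9 to 47.2 CPM in the combined knockdown, of which 3 had a mean of at least 1 CPM and PDGFRA made up the most. The 5 Schwann and glial markers summed to 1.79 to 3.61 CPM and the 3 endothelial markers to 0.496 to 1.76 CPM over all samples. The sympathetic neuron and neuroblastoma markers summed to 666 to 698 CPM in siCtrl, against 929 to 958 CPM in siMYCN, 833 to 892 CPM in siHAND2 and 694 to 1060 CPM in the combined samples. The part of these shifts in the HOX values was not tested. In such bulk samples fewer cells that express a gene and less RNA of it per cell cannot be told apart.

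Reduction of MYCN left most HOX genes near their siCtrl levels. HOXD3, an anterior gene of the HOXD cluster, was listed at 6.14, 7.62 and 6.85 CPM in siCtrl and at 9.21, 8.25 and 8.71 CPM in siMYCN. All siMYCN samples thus lay above all siCtrl samples, with a difference of 0.31 on the log2(CPM + 1) scale (SE 0.13, limma adjusted p = 0.068). HOXC8, a thoracic-level gene, was listed at 2.26, 2.74 and 2.23 CPM in siCtrl and at 1.85, 1.83 and 1.58 CPM in siMYCN. Here all siMYCN samples lay below all siCtrl samples, with a difference of -0.31 (SE 0.14, limma adjusted p = 0.0997; -0.29 and 0.057 rescaled). Counted without a model, these 2 of 9 genes had all siMYCN samples on 1 side of all siCtrl samples, against 61.0% of all genes tested.

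At an adjusted p under 0.05 (called), 0 of 9 tested HOX genes were called in siMYCN, against 33.7% of all genes tested. HOXD3 and HOXC8 were the 2 HOX genes with an unadjusted p under 0.05, a limit also met by at least the 33.7% of all genes called. With limma's voom on estimated reads 0 were called as well. The replicate numbers paired the siCtrl and siMYCN samples, and with the number as a block HOXD3 was called (limma adjusted p = 0.041). It was also called after rescaling (0.31, limma adjusted p = 0.011), where 47.9% of all genes were called. HOXD3 passed as well when replicate 1 or replicate 3 of the combined knockdown was left out of the common fit (limma adjusted p down to 0.015), and HOXC8 without that replicate 1 (limma adjusted p = 0.045). HOXD8 at -0.01 (95% interval -0.24 to 0.22) and HOXD9 at 0.01 (-0.28 to 0.30) showed the smallest differences.

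Reduction of HAND2 moved genes of the HOXD cluster in opposite directions, HOXD3 up and HOXD8 down. HOXD3 was listed at 9.15, 8.95 and 9.79 CPM in siHAND2, above every siCtrl sample. It rose by 0.39 on the log2 scale (SE 0.13, limma adjusted p = 0.017). HOXD8, a gene of the middle of the cluster, was listed at 11.4, 10.1 and 12.1 CPM in siCtrl and at 8.29, 8.71 and 8.91 CPM in siHAND2. All siHAND2 samples lay below all siCtrl samples, and HOXD8 fell by 0.34 on the log2 scale (SE 0.11, limma adjusted p = 0.017). Between these genes on the chromosome, HOXD4 was listed at 0.826, 1.28 and 1.27 CPM in siCtrl and at 0.981, 0.824 and 1.71 CPM in siHAND2, with overlapping groups.

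In siHAND2, 2 of 9 tested HOX genes were called, against 42.7% of all genes tested, so the share among HOX genes was below that of the background. Counted without a model, 3 of 9 had all siHAND2 samples on 1 side of all siCtrl samples, against 62.8% of all genes: HOXD3 and HOXC6 above and HOXD8 below. HOXC6 was listed at 1.16, 1.44 and 0.99 CPM in siCtrl and at 1.77, 1.47 and 1.45 CPM in siHAND2, with a difference of 0.23 (SE 0.15, limma adjusted p = 0.234). The rise of HOXD3 was larger after rescaling (0.53, limma adjusted p = 2.4e-04), whereas HOXD8 at -0.19 no longer passed (limma adjusted p = 0.073), and HOXC4 was then called higher (0.36, limma adjusted p = 0.0047), with 50.8% of all genes called. Without siCtrl replicate 1 neither HOXD3 nor HOXD8 passed. HOXD3 was also lost without siHAND2 replicate 3 and HOXD8 without siCtrl replicate 3 or siHAND2 replicate 1, with limma adjusted p up to 0.090 and 0.093.

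The combined knockdown lowered HOXD8 and HOXD9, neighbours in the middle of the HOXD cluster. HOXD8 was listed at 8.31, 7.00 and 6.58 CPM, below every siCtrl sample, and fell by 0.56 on the log2 scale (SE 0.11, limma adjusted p = 9.4e-05). HOXD9 was listed at 4.96, 5.66 and 6.15 CPM in siCtrl and at 4.41, 4.48 and 2.39 CPM in the combined knockdown. All combined samples lay below all siCtrl samples, and HOXD9 fell by 0.50 on the log2 scale (SE 0.14, limma adjusted p = 0.0031). HOXC8 was listed at 2.32, 1.45 and 1.19 CPM, so that its highest sample overlapped siCtrl, and it fell by 0.38 on the log2 scale (SE 0.14, limma adjusted p = 0.021).

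These falls stood beside a fall of most genes. In the combined knockdown 3 of 9 tested HOX genes were called, all lower, against 67.4% of all genes called and 50.1% called lower. Counted without a model, 3 of 9 had all samples on 1 side of siCtrl, against 65.0% of all genes. After rescaling, HOXD8 remained lower (-0.24, limma adjusted p = 0.022), while HOXD9 (-0.21, limma adjusted p = 0.12) and HOXC8 (-0.15, limma adjusted p = 0.27) did not pass. HOXD8 and HOXD9 were called in all 12 fits that left out 1 sample. HOXC8 was lost without siCtrl replicate 2, or without replicate 2 or 3 of the combined knockdown, with limma adjusted p up to 0.13.

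No HOX gene was called higher in the combined knockdown as deposited. HOXD4 was listed at 1.54, 1.61 and 1.88 CPM, above every siCtrl sample, with a difference of 0.34 (SE 0.15, limma adjusted p = 0.051) on the deposited scale. HOXC9, the gene with the highest level per kilobase in siCtrl, was listed at 6.39, 6.46 and 7.04 CPM in siCtrl and at 10.1, 6.53 and 6.51 CPM in the combined knockdown, so the groups overlapped and replicate 1 stood apart. HOXD3 was listed at 10.7, 8.08 and 6.58 CPM, again with replicate 1 highest and with overlap. HOXC4 was listed at 6.72, 6.19 and 6.69 CPM in siCtrl and at 7.49, 6.04 and 4.91 CPM in the combined knockdown.

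After rescaling, 5 of 9 were called in the combined knockdown, against 70.7% of all genes. HOXD3 (0.56, limma adjusted p = 6.4e-05), HOXD4 (0.56, limma adjusted p = 0.012), HOXC9 (0.48, limma adjusted p = 3.5e-04) and HOXC4 (0.22, limma adjusted p = 0.044) were then higher, and HOXD8 lower. HOXC4 turned sign between the scales, from -0.09 as deposited. The summed HOXC level was 97.3% ± 26.3 of siCtrl as deposited and 123% ± 16.2 rescaled (SD, n = 3), and the summed HOXD level 86.3% ± 14.8 and 110% ± 2.3, so the means lay on different sides of siCtrl on the 2 scales, and as deposited both clusters lay within 1 SD of the siCtrl mean.

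**Figure D3:**
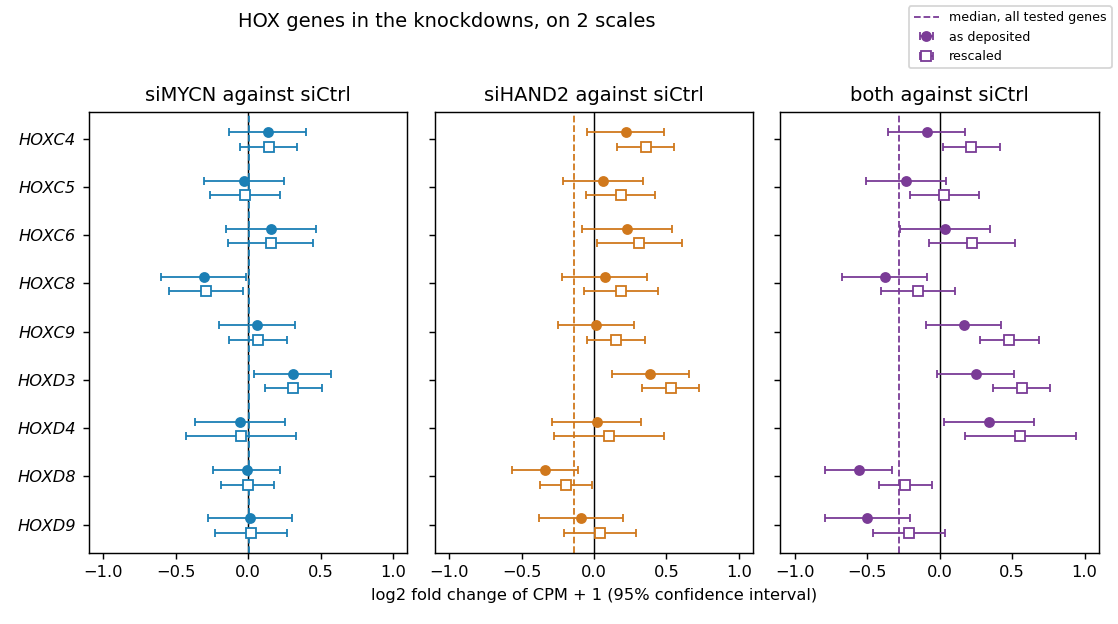
Log2 fold change of CPM + 1 against siCtrl for the 9 tested HOX genes, with 95% confidence intervals, as deposited (filled circles) and rescaled by the median ratio (open squares), and the deposited median of all 12680 genes as a dashed line at 0.006, -0.14 and -0.28. HOXD3 lies above 0 in all 3 panels on both scales and HOXD8 lies below 0 in siHAND2 and the combined knockdown on both.

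As deposited, the knockdowns differed from each other in HOXC8, HOXD4, HOXD8 and HOXD9. Between the single knockdowns HOXC8 was lower in siMYCN than in siHAND2, where it was listed at 2.79, 2.97 and 2.05 CPM, and the groups did not overlap (-0.38, SE 0.14, limma adjusted p = 0.040). HOXD8 was higher in siMYCN, at 10.9, 10.4 and 12.0 CPM, than in siHAND2 (0.33, SE 0.11, limma adjusted p = 0.024), again without overlap. These were 2 of 9 genes, against 35% of all genes tested. HOXC8 lost its call without any 1 of the siMYCN samples or without siHAND2 replicate 1 or 2, and HOXD8 without siMYCN replicate 1 or 3 or siHAND2 replicate 1 or 2, with limma adjusted p up to 0.16 and 0.12. With the replicate number as a block and all samples kept, HOXC8 and HOXD8 were called (limma adjusted p = 0.0155 and 0.0158). HOXD8 was not called after rescaling (0.19, limma adjusted p = 0.083), and HOXC8 was (-0.48, limma adjusted p = 0.005), with 44.5% of all genes called on that scale.

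Addition of the HAND2 siRNA to the MYCN siRNA changed 3 of 9 tested HOX genes, against 58.9% of all genes. HOXD8 fell by 0.55 on the log2 scale (limma adjusted p = 1.9e-04) and HOXD9 fell by 0.51 (limma adjusted p = 0.0033), and both were called in all 12 fits that left out 1 sample. HOXD9 had been listed at 5.51, 5.66 and 5.72 CPM in siMYCN. HOXD4 was listed at 1.03, 0.741 and 1.39 CPM in siMYCN and was higher in each combined sample (0.39, limma adjusted p = 0.028). The call of HOXD4 was lost without siMYCN replicate 1 or 2 or without combined replicate 2 or 3 (limma adjusted p up to 0.16). After rescaling HOXD4 (0.60) and HOXD8 (-0.24) were still called and HOXD9 (-0.23) was not, and HOXD3 turned from -0.06 to a called 0.25 (limma adjusted p = 0.030). HOXC9 was also called higher on that scale (0.41, limma adjusted p = 0.0019), which made 4 of 9, with 56.7% of all genes called.

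Addition of the MYCN siRNA to the HAND2 siRNA changed 2 of 9, against 40.3% of all genes. HOXC8 fell by 0.45 (limma adjusted p = 0.013) and HOXD9 fell by 0.41 on the log2 scale (limma adjusted p = 0.023). HOXD9 had been listed at 5.41, 5.18 and 4.93 CPM in siHAND2, above all 3 combined samples. HOXC8 was called after rescaling (-0.34, limma adjusted p = 0.031) and HOXD9 was not (-0.26, limma adjusted p = 0.081). HOXC9 (0.33, limma adjusted p = 0.010) and HOXD4 (0.45, limma adjusted p = 0.046) were then called higher, which made 3 of 9, with 49.7% of all genes called. Without combined replicate 1 the count rose to 6, and without combined replicate 3 or siHAND2 replicate 2 it fell to 0. The share of all genes called in these fits was not counted.

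The combined change was compared with the single changes added up. The interaction was called for 0 of 9 HOX genes as deposited and rescaled, against 4.01% and 6.14% of all genes. An unadjusted p under 0.05 was found for 3 of them, HOXC4 at -0.44 (95% interval -0.82 to -0.07), HOXD3 at -0.45 (-0.83 to -0.08) and HOXD9 at -0.42 (-0.83 to -0.01). Each estimate was below 0, as was the median of -0.18 over all genes tested, with limma adjusted p of 0.171, 0.165 and 0.222. The share of all genes with an unadjusted p under 0.05 was not counted. After rescaling each of the 3 stood at -0.28 (limma adjusted p = 0.20, 0.20 and 0.32), against a median of -0.009 over all genes. With voom 0 were called as well. Without combined replicate 1 the interaction was called for HOXC4, HOXC5 and HOXD3, with limma adjusted p of 0.017, 0.024 and 0.0077. The share of all genes called in that fit was not counted.

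A measure that does not depend on the scale of a sample is the share of each gene in the summed CPM of its own cluster. Within the HOXD cluster the weight moved from HOXD8 to HOXD3. HOXD3 held 25.7%, 30.2% and 25.3% of the cluster in siCtrl. It held 33.6%, 32.3% and 30.5% with the MYCN siRNA, 37.3%, 37.03% and 37.7% with the HAND2 siRNA and 41.7%, 37.1% and 36.1% with both, so every knockdown sample lay above every siCtrl sample. HOXD8 held 47.7%, 40.1% and 44.8% in siCtrl and 39.9%, 40.9% and 41.9% in siMYCN, which overlapped. In siHAND2 it held 33.9%, 36.1% and 34.3% and in the combined knockdown 32.2%, 32.1% and 36.1%, all below siCtrl. The ratio of HOXD3 to HOXD8, a pair chosen after their values were seen, rose from 0.619 ± 0.118 in siCtrl to 0.787 ± 0.056 with the MYCN siRNA, 1.08 ± 0.043 with the HAND2 siRNA and 1.15 ± 0.146 with both (SD, n = 3), where siMYCN overlapped siCtrl, its lowest sample being 0.728 and the highest siCtrl sample 0.754.

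Other genes of both clusters also shifted in share. HOXD4 held 4.41% ± 0.84 of the HOXD cluster in siCtrl and 7.89% ± 2.20 in the combined knockdown, without overlap (SD, n = 3). HOXD9 held 22.0% ± 1.07 in siCtrl and 16.9% ± 3.74 in the combined knockdown, also without overlap. In the HOXC cluster, HOXC9 held 32.8% ± 2.02 in siCtrl and 39.2% ± 2.06 in the combined knockdown, with 33.5% ± 1.67 for siMYCN and 30.2% ± 3.31 for siHAND2. In the combined knockdown every sample was above siCtrl. HOXC5 held 16.6% ± 1.39 in siCtrl and 14.0% ± 1.45 in the combined knockdown, with every combined sample below siCtrl. HOXC8 held 11.9% ± 1.26 in siCtrl and 11.6% ± 1.499 in siHAND2, against 8.42% ± 0.67 in siMYCN and 8.30% ± 0.72 in the combined knockdown. It was thus below siCtrl in every sample that received the MYCN siRNA and overlapped siCtrl in siHAND2 alone. The shares within a cluster add up, so a rise of 1 gene lowers the others.

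**Figure D4:**
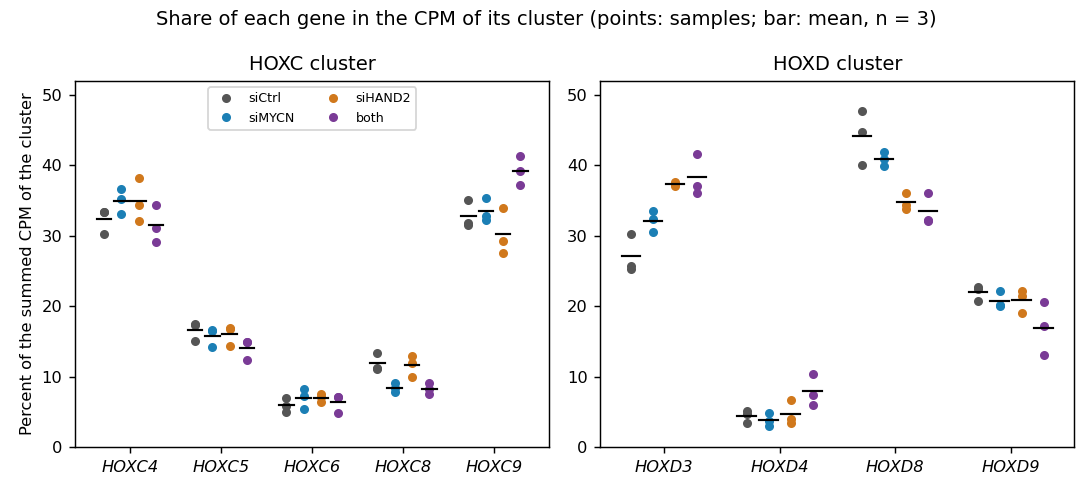
Percent of the summed CPM of the HOXC cluster (left) and of the HOXD cluster (right) held by each tested gene, with 1 point per sample and a bar for the mean (n = 3), coloured by group. The share of HOXD3 is higher and that of HOXD8 lower in siHAND2 and the combined knockdown than in siCtrl, and the share of HOXC9 is highest in the combined knockdown.

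Noncoding genes of the clusters were mostly silent. Of 22 listed, HAGLR and HOXD-AS2, both of the HOXD cluster, were high enough to be tested. HOTAIR and HOTAIRM1 were listed at 0 in every sample. HAGLR, which runs on the other strand from just beyond HOXD3 into HOXD1, was listed at 6.24 to 8.78 CPM and was called in no comparison with siCtrl as deposited. After rescaling HAGLR was called higher in siHAND2 and in the combined knockdown, with 50.8% and 70.7% of all genes called. HOXD-AS2, which lies downstream of HOXD8 on the other strand, was listed at 2.86, 2.85 and 3.26 CPM in siCtrl and at 2.29, 1.92 and 2.10 CPM in the combined knockdown, below every siCtrl sample. It fell by 0.36 on the log2 scale (SE 0.12, limma adjusted p = 0.011), and by 0.11 after rescaling (limma adjusted p = 0.41).

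Among the DNA-binding partners of HOX proteins, MEIS2 and PKNOX2 fell in every knockdown and, as deposited, MEIS3 rose with the MYCN siRNA. Of 9 listed PBX, MEIS and PKNOX genes 8 were tested, and PBX4 was below the filter. With the MYCN siRNA 2 rose and 2 fell, with the HAND2 siRNA 4 fell, and with both 1 rose and 5 fell, beside the backgrounds of 33.7%, 42.7% and 67.4% given above. Their median log2 fold changes were 0.19, -0.28 and -0.47, against 0.006, -0.14 and -0.28 over all genes tested. MEIS2 fell the furthest, from 8.07, 8.90 and 9.34 CPM in siCtrl to 6.91, 6.82 and 6.66 CPM with the MYCN siRNA, 3.96, 4.24 and 3.69 CPM with the HAND2 siRNA and 2.23, 2.20 and 1.68 CPM with both. The 4 groups did not overlap, and the differences from siCtrl were -0.32, -0.98 and -1.69 (limma adjusted p = 0.028, 1.4e-07 and 1.7e-12).

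PKNOX2, of the same TALE class, followed the order of MEIS2. It was listed at 3.802 ± 0.282 CPM in siCtrl, and at 2.64 ± 0.29, 1.42 ± 0.30 and 0.867 ± 0.262 CPM in siMYCN, siHAND2 and the combined knockdown (SD, n = 3), and it was called lower in all 3. MEIS3 rose from 55.1 ± 1.3 CPM in siCtrl to 89.0 ± 2.6 CPM in siMYCN (0.68, limma adjusted p = 2.1e-04) and 76.9 ± 17.9 CPM in the combined knockdown (0.45, limma adjusted p = 0.0036). PBX3 fell by 0.39 in siHAND2 (limma adjusted p = 0.0066) and by 0.61 in the combined knockdown (limma adjusted p = 3.4e-05). These calls of MEIS2, PKNOX2, MEIS3 and PBX3 kept their direction and their side of the threshold after rescaling. In siHAND2, MEIS3 stood at 62.5 ± 2.9 CPM, with every sample above every siCtrl sample. It was not called there as deposited (0.18, limma adjusted p = 0.27) and was called higher after rescaling (0.34, limma adjusted p = 3.6e-04). Between the single knockdowns, 7 of the 8 partners were higher in siMYCN than in siHAND2, as deposited and rescaled, against 26.1% and 22.4% of all genes called higher. MEIS1, named after its values were seen, was 1 of the 7, with 458 ± 27.1 CPM in siMYCN, 343 ± 18.7 CPM in siCtrl and 272 ± 9.3 CPM in siHAND2.

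**Figure D5:**
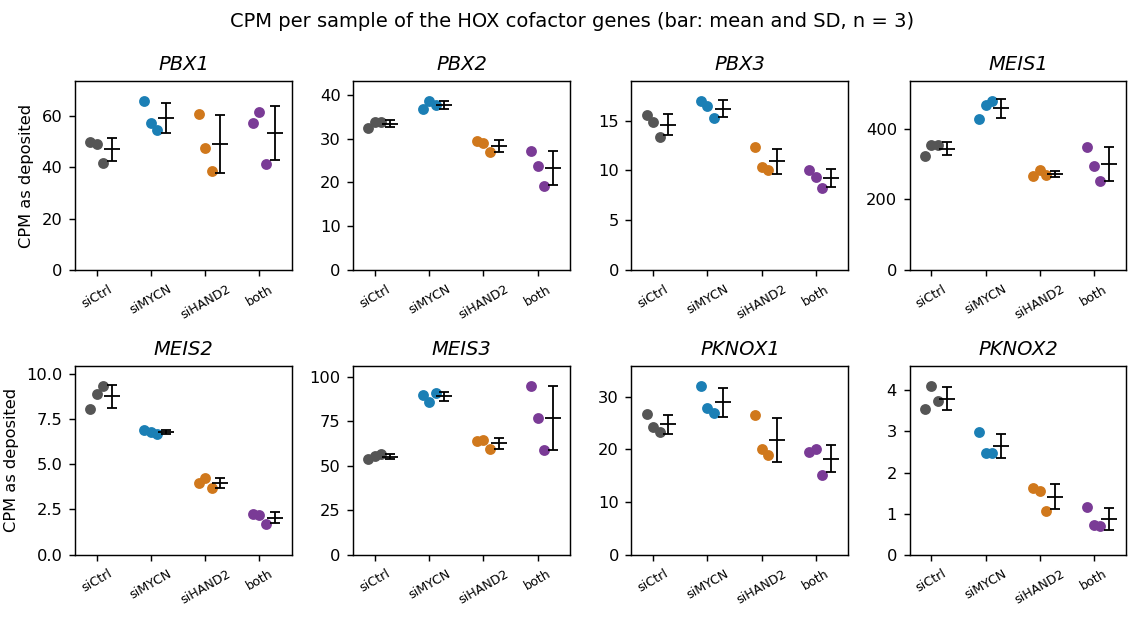
CPM as deposited of the 8 tested PBX, MEIS and PKNOX genes in each of the 12 samples by group, with the mean and SD (n = 3), on axes that start at 0. MEIS2 and PKNOX2 are lower in each knockdown than in siCtrl and lowest in the combined knockdown, and MEIS1 and MEIS3 are higher in siMYCN than in siCtrl.

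Regulators of the clusters changed in both directions. Of 20 listed 16 were tested, with 3 higher and 2 lower for siMYCN, 3 higher and 4 lower for siHAND2, and 4 higher and 8 lower for the combined knockdown, beside the same backgrounds of 33.7%, 42.7% and 67.4%. Their medians were -0.02, -0.15 and -0.36, against 0.006, -0.14 and -0.28 over all genes tested. The CDX genes, which activate trunk HOX genes in the embryo, were listed at 0 in every sample. GMNN, which encodes geminin, a replication licensing inhibitor that also binds HOX and Polycomb proteins, fell from 47.2 ± 3.3 CPM in siCtrl to 34.7 ± 1.6, 20.8 ± 2.2 and 12.8 ± 1.9 CPM in siMYCN, siHAND2 and the combined knockdown. EED, a core subunit of the Polycomb repressive complex that marks silent HOX genes, fell from 15.1 ± 0.5 CPM to 10.3 ± 0.5, 8.43 ± 0.41 and 5.89 ± 1.16 CPM in the same order. Its partner EZH2, the methyltransferase of that complex, named after its values were seen, was listed at 51.4 ± 1.7, 42.5 ± 1.4, 36.8 ± 0.7 and 24.3 ± 4.0 CPM. The falls of GMNN and EED were called in all 3 knockdowns, and those of EZH2 in siHAND2 and the combined knockdown, on both scales. KMT2A, of the Trithorax group and also named after its values were seen, went the other way in siHAND2. It was called higher there as deposited (0.42, limma adjusted p = 0.023) and rescaled (0.58, limma adjusted p = 0.013). KMT2A was not called in siMYCN, and in the combined knockdown only after rescaling (0.57, limma adjusted p = 0.0097). Of the same list, KMT2B was not called in siHAND2 as deposited (0.12, limma adjusted p = 0.47). MEN1 was listed at 25.6 ± 0.6 CPM in siCtrl and 15.2 ± 2.6 CPM in the combined knockdown.

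Retinoic acid is the classical inducer of HOX genes, and genes of its receptors and of its breakdown changed. CYP26A1, which encodes the enzyme that clears retinoic acid, was listed at 0.251 to 0.505 CPM in siCtrl, 1.24 to 1.84 CPM in siHAND2 and 1.63 to 2.22 CPM in the combined knockdown. It rose by 0.91 and 1.14 on the log2(CPM + 1) scale (limma adjusted p = 6.0e-06 and 5.4e-08), and siMYCN at 0.148 to 0.353 CPM did not pass (limma adjusted p = 0.43). The rises of CYP26A1 were also called after rescaling. The receptor genes RARA and RARB, named after their values were seen, were called higher in siMYCN, by 0.40 and 0.84 (limma adjusted p = 0.031 and 5.3e-06). RARB was also higher in the combined knockdown (0.33, limma adjusted p = 0.018), whereas RARA fell by 0.43 in siHAND2 (limma adjusted p = 0.016) and by 0.49 in the combined knockdown (limma adjusted p = 0.0036), the latter not called after rescaling (-0.14). RARG, the other listed receptor gene, had a lower mean in each knockdown than its 9.13 ± 0.77 CPM in siCtrl. It stood at 8.19 ± 0.66, 7.23 ± 1.02 and 5.94 ± 1.24 CPM in siMYCN, siHAND2 and the combined knockdown (SD, n = 3).

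Among the genes that flank the clusters, CALCOCO1 rose in every knockdown. Of 15 listed neighbours 8 were tested, with 2 higher for siMYCN, 1 higher and 2 lower for siHAND2 and 2 higher and 3 lower for the combined knockdown, beside the same backgrounds of 33.7%, 42.7% and 67.4%. CALCOCO1, a coactivator gene on the HOXC side, rose from 9.39 ± 0.67 CPM in siCtrl to 16.6 ± 1.5, 17.04 ± 1.07 and 23.7 ± 5.6 CPM in siMYCN, siHAND2 and the combined knockdown (0.76, 0.80 and 1.23, limma adjusted p = 5.8e-05, 2.0e-05 and 6.7e-09), while no gene of HOXC was called higher in these comparisons as deposited. CBX5, which encodes heterochromatin protein HP1 alpha and lies on the HOXC side beyond SMUG1, fell by 0.97 in the combined knockdown (limma adjusted p = 5.5e-06). ATF2, on the HOXD side beyond EVX2, LNPK and ATP5G3, rose by 0.46 in siMYCN (limma adjusted p = 0.0040) and 0.40 in the combined knockdown (limma adjusted p = 0.0048). HIBADH, on the HOXA side beyond EVX1, fell by 0.36 in siHAND2 (limma adjusted p = 0.019) and by 0.61 in the combined knockdown (limma adjusted p = 1.1e-04). These calls of CALCOCO1, CBX5, ATF2 and HIBADH kept their direction and their side of the threshold after rescaling.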

How the data were processed

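RNA-seq was made from 12 samples of IMR32 cells, 3 in each of 4 groups set by the sample titles. The authors deposited 1 table of CPM. Its column names, per the file headers, refer to STAR, and the submitters' processing notes name STAR 2.5.1, Partek and hg19 (GRCh37). The counting tool, its use of strand, and the annotation are not given in the sources used here. Each deposited CPM value held an added constant of 0.0001, which was subtracted. For estimated reads, each value was divided by the most common non-zero value of its column, refined on values near its whole multiples. These estimates were whole within 0.03 read for 87.8 to 89.6% of values under 20 reads, so no count test was used as the main one.

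The scale of analysis was log2(CPM + 1), which understates the change of low genes, and 12680 genes whose CPM averaged 1 or more were tested. A linear model covered all 12 samples and the 4 groups, with limma 3.58.1 (trend; 8 residual degrees of freedom) in R 4.3.3, with two-sided tests, Benjamini-Hochberg adjustment over all genes tested and a threshold of 0.05. The script was tested on simulated data. The median ratio used genes averaging 5 CPM or more. The labels do not say that replicates were separate cultures, so p-values measure the spread between these samples, which may be technical.

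Members and lists were chosen with earlier results of these data known. Named genes are all HOX genes, both targets, and of each list the called members with the largest change in a knockdown, at most 4, and some items that this rule covers are not reported here. Same-numbered samples deviated together for siCtrl and siMYCN (correlations over genes of 0.44, 0.15 and 0.31) and for siMYCN and siHAND2 (0.33, 0.14 and 0.32), so these were taken as paired by replicate number. Sequences were read from GRCh37 at listed gene starts, and exons from GENCODE. Alternatives were another pseudocount, no filter, rescaling, only the compared groups, the replicate block, limma's voom and leaving out each sample.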

Additional observations from a re-analysis of the deposited data

Results flagged for a closer look

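CBX5, one of the listed neighbours of the HOXC cluster, differed between the knockdowns in a test of the difference itself. Its interaction was -0.82 on the log2 scale (SE 0.22, limma adjusted p = 0.032). It was listed at 597, 666 and 521 CPM in siCtrl, 591, 635 and 582 CPM in siMYCN, 658, 513 and 424 CPM in siHAND2 and 298, 384 and 240 CPM in the combined knockdown, where every sample lay below all samples of the other groups. After rescaling the interaction was -0.63 and was not called.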

How the results depend on the processing

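Over 1314 recomputed fold changes of single HOX genes, 1188 kept their direction and their side of the threshold, 64 newly passed it, 56 no longer did and 6 reversed. The 6 were HOXC4 in the combined knockdown against siCtrl (0.22 rescaled, 0.22 with the replicate block and rescaling, 0.25 rescaled without combined replicate 3) and HOXD3 in the combined knockdown against siMYCN (0.25, 0.25 and 0.30). The last of these settings was chosen after seeing the data. The count of called HOX genes in siMYCN against siCtrl (0) became 1 under either rescaling or the replicate block, and 2 with the block and rescaling, rescaled without combined replicate 3, or with only the compared groups. In siHAND2 against siCtrl (2) it became 1 without a filter. In the combined knockdown against siCtrl (3) it became 5 rescaled, 5 with the block and rescaling and 5 rescaled without combined replicate 3. In the combined knockdown against siHAND2 (2) it became 0 without a filter, 4 with the replicate block and 1 rescaled without combined replicate 3. In siMYCN against siHAND2 (2) it became 1 with a pseudocount of 0.1, without a filter, rescaled, with voom and rescaled without combined replicate 3. The summed HOXC level in siHAND2 moved from 110% of siCtrl to 123% and 121% under the 2 rescalings, the HOXD level in siHAND2 from 97.9% to 109% and 107%, and the HOXD level in the combined knockdown from 86.3% to 110% and 109%. Leaving out 1 sample gave counts of 0 to 2 in siMYCN, 0 to 2 in siHAND2 and 2 to 4 in the combined knockdown against siCtrl, 0 to 2 for siMYCN against siHAND2, 2 to 5 and 0 to 6 for the combined knockdown against siMYCN and siHAND2, and 0 to 3 for the interaction. For the other groups the pairing was unclear, as 2 to 4 of 6 samples correlated best with their own number. Among these are siCtrl and siHAND2, which were each taken as paired with siMYCN. The leading numbers of the column names rise from replicate 1 to replicate 3 across all groups, and the labels do not say what they number. The block changed no other count by over 1.5 times. The share of all genes called was counted for the deposited scale and the 2 rescalings, and not for the other settings. The cause of these shifts was not tested. Depth limits HOXA, HOXB and the ends of HOXC and HOXD, where 3 reads correspond to 0.0468 to 0.0949 CPM.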
